A study of Mus musculus with 11 samples.

Results

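Lungs of mice that had received triptolide, with or without aspirin, were set against lungs of mice that had not. The triptolide-exposed side held 6 arrays, 3 from mice given triptolide at 1 mg per kg and 3 from mice given triptolide at 1 mg per kg together with aspirin at 4 mg per kg. The unexposed side held 5 arrays, 2 labelled untreated control and 3 from mice given aspirin at 4 mg per kg. All mice were of strain 129S1, dosing was by gavage on 5 days a week for 2 months, and the tissue was whole lung. Aspirin was kept as a second factor in the main model, so that its triptolide difference was an average over lungs without and with aspirin. The genes described are the 231 of 19106 autosomal genes tested in which all 6 exposed arrays lay above, or all 6 lay below, all 5 unexposed arrays. Of them 92 were higher and 139 lower with triptolide, which is 0.482% and 0.728% of the genes tested, or 1.21% in either direction.

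The controls are called untreated in the titles, whereas a group given PBS buffer appears in the protocol, and which applies is not settled. Age, sex and time of collection are not given for any animal. Nor do the labels say that the samples of a group came from separate animals, so p-values measure only the spread between these samples.

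Triptolide is a diterpenoid of the thunder god vine that binds the XPB subunit of the transcription factor TFIIH, encoded by Ercc3, and slows transcription by RNA polymerase II. Transcripts that turn over quickly are known to be the most sensitive to such a block. Chaperones of the heat shock response refold proteins, and their genes are switched on by heat shock factor when unfolded proteins build up. The lung holds a dense capillary bed, so endothelial transcripts make up a large share of its RNA, beside those of the flat alveolar type 1 cells that face the air.

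Values are log2 levels as deposited, and differences are log2 ± SE of a limma fit. Array medians ran from 8.135 to 8.254. The lung markers Sftpc, a surfactant gene, and Scgb1a1, of club cells, read at least 13.62 on every array. Along the first principal component (46.2% of variance) combination 1 scored 59.3, and no other array scored outside -14.2 to 6.3. Its erythroid gene level was 3.12 above the mean of all arrays and its cell cycle level 2.54 above, against at most 0.40 and -0.06 on the other arrays. Sex-linked genes divided the arrays in another way, by Xist, the X-inactivation RNA, and by the mean of 3 Y-linked genes. Xist lay between 11.98 and 12.80 on the control and combination arrays and triptolide 1, between 6.61 and 7 on the aspirin arrays and triptolide 3, and at 9.75 on triptolide 2, which also carried Y-linked transcripts. Each side of the comparison thus held arrays of both kinds, though triptolide 3 was the only exposed array with low Xist. A gene that separated all arrays also separated them within each kind by the way it was chosen, which says nothing about sex-linked signals. Combination minus aspirin, however, set 3 arrays with high Xist against 3 with high Y-linked genes, so in that contrast, and in the interaction that uses it, aspirin background and these sex-linked signals cannot be told apart. Triptolide minus control was uneven as well, since triptolide 2 and triptolide 3 carried high Y-linked genes and neither control did. Aspirin against control was divided by these signals completely.

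The contrast that chose the 231 genes also gives their differences, so these are a description and their common direction is no support. In the limma fit over all genes, 1 gene passed at an adjusted p under 0.05, and it was lower with triptolide. That gene is 0.00523% of those tested, and 0 genes (0%) passed in the higher direction. At an unadjusted p under 0.05 there were 1848 genes, 596 higher and 1252 lower. Of the 64 genes with an adjusted p under 0.1, 29 separated the arrays. The median difference over all genes was -0.01, against 0.28 over the 92 higher genes and -0.31 over the 139 lower genes.

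Most of these separations were narrow. The distance between the nearest exposed and unexposed arrays exceeded 0.1 in 12 of the 92 higher and 18 of the 139 lower genes, and exceeded 0.2 in 2 and 1. Fitted sizes ran from 0.11 to 1.84 among the higher genes and from 0.10 to 0.81 among the lower ones. Scaling moved the balance of directions. With every array centred on its median, 56 genes separated higher and 230 lower, so that the higher share was 19.6% in place of 39.8%, and with quantile normalization the counts were 102 and 209, or 32.8% higher. Under both scalings 137 of the 231 genes still separated the arrays, 41 of the higher and 96 of the lower.

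**Figure D1:**
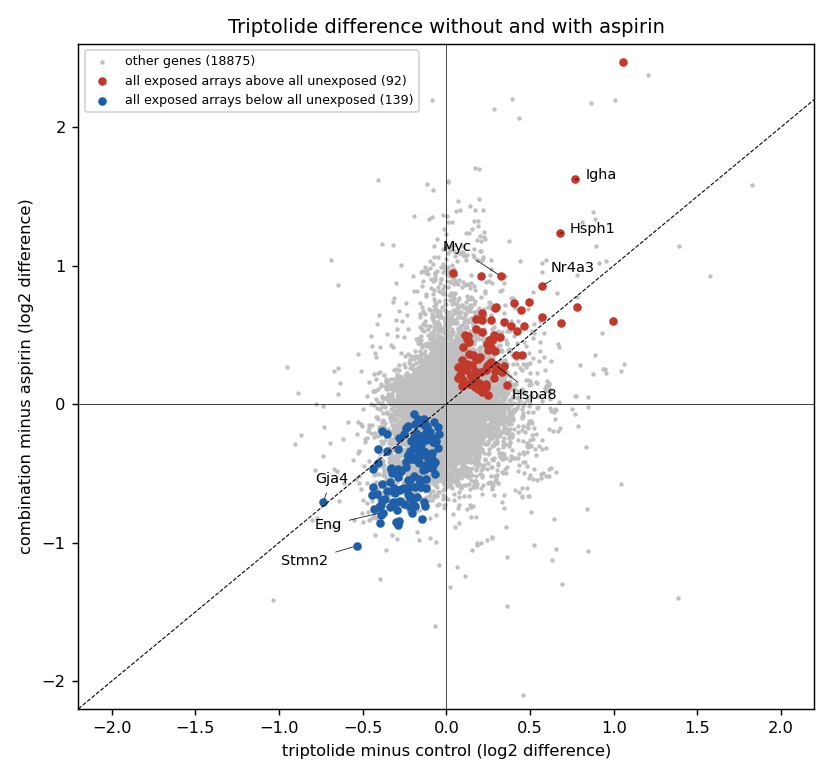
Log2 difference of triptolide minus control (horizontal) and of combination minus aspirin (vertical) for each gene tested, with the 92 higher genes in red, the 139 lower genes in blue and all others in grey; the dashed line marks equal differences. The colored genes lie to the upper right or lower left by the way they were chosen, and 125 of the 139 lower genes differed by more on the vertical axis, whose arrays also differ by Xist and Y-linked genes.

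Gja4, a connexin that forms gap junctions between arterial endothelial cells, was the gene that passed. Control arrays read 9.94 and 9.83, aspirin arrays 9.71, 9.66 and 9.83, and exposed arrays 8.95, 9.27 and 9.24 with triptolide, and 8.84, 9.17 and 9.06 with the combination. Every exposed array lay below every unexposed one, and 0.39 separated the nearest of them, the widest distance among the lower genes. Gja4 fell by 0.72 on the log2 scale with triptolide (SE 0.08, limma adjusted p = 0.033, 6 of 6 exposed arrays lower). The fall was -0.74 ± 0.13 without aspirin and -0.71 ± 0.11 beside it. In these bulk samples, fewer endothelial cells and less of such an RNA per cell cannot be told apart. The call was held without triptolide 3 and without combination 1, at limma adjusted p of 0.0249 and 0.0385. Without any of the other 9 arrays it was lost, at values between 0.0521 without combination 2 and 0.272 without control 1. Over all 23 alternatives Gja4 passed in only 10, with differences that stayed between -0.76 and -0.68.

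Other genes of arterial endothelium lay on the same side. All 12 measured members of the arterial list were below 0, 3 separated the arrays lower (25% against 0.728% of all genes), and the median difference was -0.41 against -0.01 over all genes. Sema3g, a secreted semaphorin that guides vessels and axons, read 10.24 and 10.17 in control, 10.15, 10.15 and 10.06 with aspirin, 9.74, 9.66 and 9.89 with triptolide and 9.54, 9.65 and 9.76 with the combination. The exposed and unexposed arrays did not overlap, and triptolide 3 was the nearest to the unexposed ones. Sema3g differed by -0.46 ± 0.06 (limma adjusted p = 0.087), which did not pass. Sox17, a transcription factor of arterial identity, differed by -0.32 ± 0.08. The mean level of the arterial list ran from 0.10 to 0.32 on the unexposed arrays and from -0.51 to 0.06 on the exposed arrays. That mean includes the 3 members chosen for separating these arrays, so its own separation is no further support. Without aspirin 1 or without triptolide 3, 5 members separated, where 1.1% and 2.19% of all genes separated lower. Leaving out an array cannot lower such a count, here or in the lists below, so these counts are no support. Apart from the heat shock list, only the leave-outs with the highest counts are given.

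Pan-endothelial genes were lower with triptolide as a group of values, although none of them passed. With array weights 16 of them passed, of 224 lower genes in all. Of 22 measured members 21 lay below 0, with a median of -0.49, and 21 also lay below 0 in each of the comparisons without and with aspirin. The 5 that separated the arrays were Eng, Erg, Ptprb, Ramp2 and Sox17 (22.7%, against 0.728% of all genes). Levels of the whole list ran from 0.15 to 0.37 on the unexposed arrays and from -0.57 to 0.16 on the exposed arrays, and triptolide 3, at 0.16, overlapped aspirin 2 and 3, at 0.16 and 0.15. Without triptolide 3, 19 of the 22 members separated the arrays, where 2.19% of all genes separated lower. Without aspirin 2, 8 did so, where the share was 1.31%, and without any other single array 5 or 6 did.

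Eng, the endothelial co-receptor for BMP ligands, gave 12.96 and 12.91 in control and 12.96, 13.02 and 12.92 with aspirin. With triptolide it gave 12.42, 12.44 and 12.80, and with the combination 12.18, 12.01 and 12.36. The 5 unexposed arrays were tightly grouped, all exposed arrays lay under them, and the combination arrays were the lowest. Eng differed by -0.61 ± 0.10 (limma adjusted p = 0.087). Erg, an ETS transcription factor that maintains endothelial identity, differed by -0.54 ± 0.09 with the same adjusted p, and Ptprb, a phosphatase of endothelial junctions, by -0.54 ± 0.12. Ramp2, the partner of the adrenomedullin receptor, differed by -0.49 ± 0.12 and cleared the unexposed arrays by less than 0.01.

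Cdh5, the cadherin of endothelial junctions, shows how near a gene could come without entering the set. It read 13.02 and 12.95 in control, 12.76, 12.90 and 12.67 with aspirin, 12.51, 12.47 and 12.77 with triptolide and 11.84, 12.14 and 12.29 with the combination. Triptolide 3 overlapped aspirin 1 and aspirin 3, so the arrays did not separate. Its difference was -0.56 ± 0.10 (limma adjusted p = 0.087), close to those of Eng and Erg.

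Inhibitors and receptors of BMP signalling were among the lower genes. Of the list of BMP ligands, receptors, Smads and Id genes, 4 of 20 members separated lower (20%, against 0.728% of all genes). The list median was -0.20, and 7 members separated without triptolide 3, against 2.19% of all genes. Smad6, an inhibitory Smad that BMP signalling itself induces, read 10.84 and 10.72 in control, 10.93, 11.13 and 10.90 with aspirin, 10.36, 10.43 and 10.60 with triptolide and 10.16, 10.30 and 10.38 with the combination. No exposed array reached the lowest unexposed one, control 2. The difference of Smad6 was -0.53 ± 0.09 (limma adjusted p = 0.087). Acvrl1, the endothelial type I receptor that works with Eng, differed by -0.46 ± 0.10, and Smad9, a receptor-activated Smad, by -0.27 ± 0.06. The Id genes, direct targets of the pathway, did not separate the arrays, with Id1 at -0.20 ± 0.13, Id2 at -0.03 ± 0.11 and Id3 at -0.35 ± 0.13.

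Of the 15 Notch pathway genes, 2 receptors separated the arrays lower (13.3%, against 0.728% of all genes), and the median was -0.19. Without combination 3, 4 members separated lower, against 0.848% of all genes. Notch4, the receptor found mainly in endothelium, differed by -0.35 ± 0.10, and Notch1 by -0.30 ± 0.09. Their ligand Dll4 differed by -0.53 ± 0.12 and the target Hey1 by -0.47 ± 0.12, but both overlapped between the sides. Rbpj, the DNA-binding partner of the receptors, stood at 0.00 ± 0.08.

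**Figure D2:**
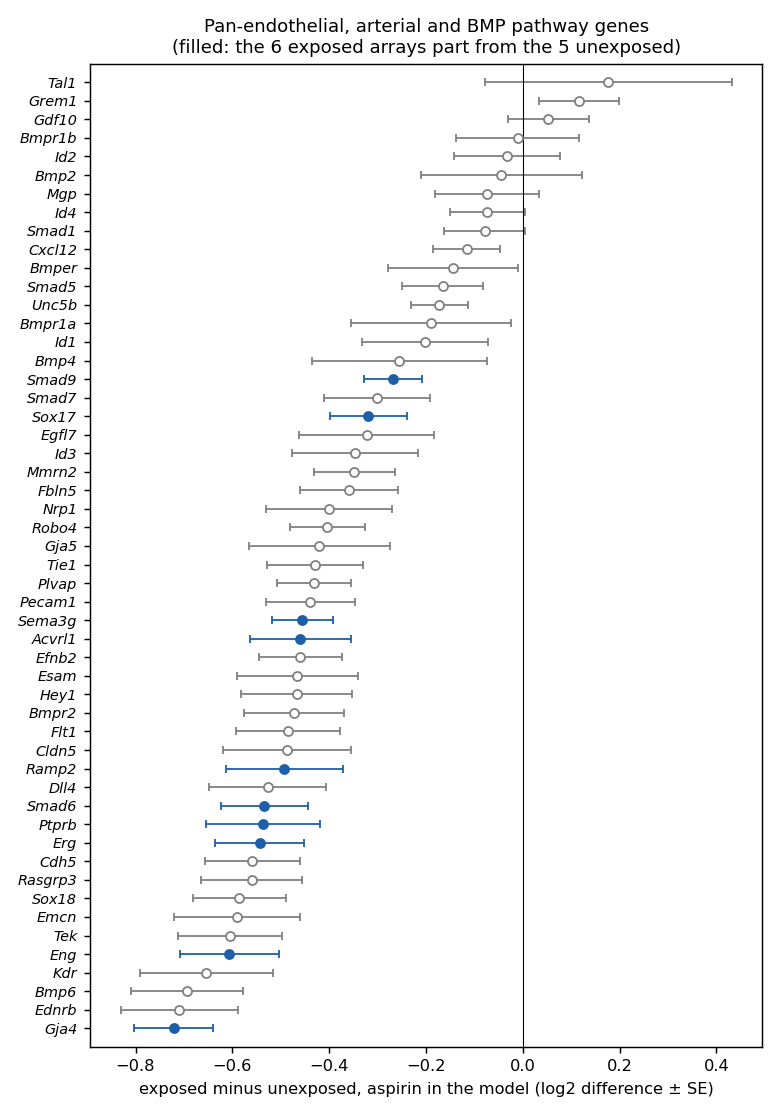
Exposed minus unexposed log2 difference with its SE for the measured genes of the pan-endothelial, arterial and BMP lists, with aspirin in the model; filled blue points are genes that separated all 6 exposed from all 5 unexposed arrays. Of the pan-endothelial genes 21 of 22 lie below 0, of the arterial genes all 12 and of the BMP genes 18 of 20, with Gja4 lowest at -0.72 and Tal1 highest at 0.18.

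Capillary genes gave 3 separating members of 14 (21.4%), with all 14 below 0 and a median of -0.41, and 5 members separated without aspirin 2 and 8 without triptolide 3. The shares of all genes that separated lower were 0.728% on all arrays, 1.31% without aspirin 2 and 2.19% without triptolide 3. Car4, a carbonic anhydrase on the surface of lung capillaries, read 12.38 and 12.31 in control, 12.35, 12.21 and 12.29 with aspirin, 11.91, 12.09 and 12.17 with triptolide and 11.05, 11.57 and 11.61 with the combination. Combination 1 was lowest, and 0.04 lay between triptolide 3 and aspirin 2, the nearest pair. Car4 differed by -0.61 ± 0.13, at -0.29 ± 0.16 without aspirin and -0.87 ± 0.14 beside it. Kitl, the ligand of the receptor Kit, differed by -0.40 ± 0.10 and Vwf, the clotting factor stored in endothelium, by -0.40 ± 0.12.

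Ephb4, the ephrin receptor of veins, differed by -0.50 ± 0.09, and Podxl, a sialomucin of endothelium and podocytes, by -0.61 ± 0.11. Sox7, which belongs to the same transcription factor group as Sox17, differed by -0.65 ± 0.12. These 3 were among the 15 lower genes that the rule named by smallest p. Epas1, a hypoxia-inducible factor abundant in lung endothelium, Ace, the angiotensin-converting enzyme, and Calcrl, the receptor that Ramp2 accompanies, were also in the set, at -0.29 ± 0.10, -0.47 ± 0.12 and -0.42 ± 0.09. Epas1, Ace and Calcrl were chosen after their values were seen.

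The largest fitted difference among the lower genes belonged to Stmn2, a stathmin that destabilizes microtubules. It read 10.54 and 10.35 in control, 10.28, 10.57 and 10.31 with aspirin, 9.81, 9.80 and 10.11 with triptolide and 9.03, 9.46 and 9.60 with the combination. The sides did not overlap, and triptolide 3 was again the highest exposed array. Stmn2 differed by -0.81 ± 0.13 (limma adjusted p = 0.087), at -0.54 ± 0.17 without aspirin and -1.02 ± 0.15 beside it. Tbx3, a T-box transcription factor, differed by -0.56 ± 0.09, and Tspan15, a tetraspanin that escorts the protease ADAM10, by -0.60 ± 0.11.

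Both Prickle genes of the planar cell polarity pathway separated lower. Prickle2 ran from 10.19 to 10.28 on the unexposed arrays and from 9.17 to 10.01 on the exposed arrays, and differed by -0.56 ± 0.11. Prickle1 differed by -0.42 ± 0.08. Pde9a, a phosphodiesterase that breaks down cyclic GMP, differed by -0.58 ± 0.12, Cyyr1 by -0.62 ± 0.12, and Tekt5, a tektin known from sperm flagella, by -0.51 ± 0.09.

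Genes of alveolar type 1 cells lay lower, and by more in combination against aspirin, where all arrays also differed by Xist and Y-linked genes. All 15 measured members lay below 0 with a median of -0.39, but the median was -0.07 for triptolide against control and -0.62 for the combination against aspirin. Ager and Clic5 separated the arrays (13.3%, against 0.728% of all genes), and 8 members did so without triptolide 3, where the share of all genes was 2.19%. Ager, a receptor of the basal surface of type 1 cells, read 13.10 and 13.08 in control, 13.14, 13.12 and 13.09 with aspirin, 12.94, 12.91 and 13.06 with triptolide and 12.03, 12.65 and 12.85 with the combination. Triptolide 3 lay just under the unexposed arrays and combination 1 far under them. Ager differed by -0.39 ± 0.14 (limma adjusted p = 0.367), at -0.12 ± 0.19 without aspirin and -0.61 ± 0.17 beside it, and the interaction did not pass (-0.48 ± 0.25, limma adjusted p = 0.895). The level of the type 1 list was -0.78, -0.36 and -0.07 on combination 1, 2 and 3, where combination 1 was also the array with the high erythroid and cell cycle levels; the part of that array's makeup in the values was not tested.

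Prostaglandin removal gave 2 lower genes, 11.1% of the 18 measured genes of prostanoid synthesis and signalling, against 0.728% of all genes. The median of that list was 0.00. Hpgd, the dehydrogenase that inactivates prostaglandins, read 12.80 and 12.77 in control, 12.75, 13.12 and 12.75 with aspirin, 12.56, 12.50 and 12.68 with triptolide and 11.89, 11.94 and 12.44 with the combination. Slco2a1, the transporter that brings prostaglandins to it, read 12.56 and 12.55 in control and 12.53, 12.90 and 12.70 with aspirin. Slco2a1 then read 12.31, 12.43 and 12.48 with triptolide and 11.78, 11.70 and 12.15 with the combination. In both genes the exposed arrays lay under all unexposed ones, with 2 combination arrays far below the rest. The fitted differences were -0.53 ± 0.14 for each, neither passed, and the differences beside aspirin were -0.79 ± 0.15 for Hpgd and -0.83 ± 0.13 for Slco2a1. Ptgs2, the inducible cyclooxygenase that makes prostaglandin precursors, differed by -0.02 ± 0.21 and ran from 9.51 to 10.68 on the unexposed and from 9.30 to 10.43 on the exposed arrays.

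The flavin monooxygenases Fmo1 and Fmo5, which oxidize drugs and other foreign compounds, differed by -0.53 ± 0.13 and -0.34 ± 0.10. They were the 2 of 14 members of their list that separated the arrays (14.3%, against 0.728% of all genes). The list median was 0.02 for triptolide against control and -0.36 for the combination against aspirin. Ifit3, an interferon-induced gene, separated the arrays at -0.47 ± 0.11. Ier3, an immediate early gene whose product restrains stress signalling, differed by -0.49 ± 0.11 and cleared the unexposed arrays by less than 0.01. None of these passed.

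Among the higher genes, chaperones of the heat shock response formed the largest listed group. Of 24 measured members, 12 separated the arrays higher, 50% against 0.482% of all genes, and 19 lay above 0 with a median of 0.30. They were Hsph1, Hspa8, Hspa4l, Hspa1a, Dnaja1, Hspd1, Hspe1, Chordc1, Stip1, Ahsa1, Ahsa2 and Cacybp. The list's mean level ran from -0.25 to -0.02 on the unexposed and from 0.06 to 0.24 on the exposed arrays. That mean includes the 12 members chosen for separating these arrays, so its own separation is no further support. Of the 24 members, 9 separated with arrays centred on their median and 10 with quantile normalization, where 0.293% and 0.534% of all genes separated higher. When any 1 array was left out, 12 to 14 separated, against 0.534% to 0.979% of all genes. Leaving out an array cannot lower such a count, so that range is no support. No member passed in the limma fit. With array weights, estimated from these same arrays and 0.14 for combination 1, 12 members passed, of 120 higher genes in all.

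The largest difference of the list belonged to Hsph1. Hsph1, a nucleotide exchange factor that lets Hsp70 chaperones release their clients, read 8.83 and 9.22 in control, 8.94, 9.14 and 8.65 with aspirin, 9.89, 9.44 and 9.78 with triptolide and 10.30, 10.04 and 10.08 with the combination. The combination arrays were highest, and 0.22 lay between triptolide 2 and control 2, the nearest pair. Hsph1 differed by 0.99 ± 0.14 (limma adjusted p = 0.087), at 0.68 ± 0.18 without aspirin and 1.23 ± 0.16 beside it, with an interaction of 0.56 ± 0.24 that did not pass (limma adjusted p = 0.895). It passed in 3 of 23 alternatives, with an adjusted p between 0.013 and 0.272 by limma.

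Hspa8, the constitutive Hsp70, was among the steadiest of the set. It read 13.03 and 13.08 in control, 12.94, 13.12 and 12.93 with aspirin, 13.37, 13.31 and 13.35 with triptolide and 13.24, 13.30 and 13.31 with the combination. All exposed arrays lay over 13.12, and the triptolide arrays over all combination arrays except that triptolide 2 and combination 3 met at 13.31. The difference was 0.29 ± 0.05 (limma adjusted p = 0.093), equal at 0.29 without and beside aspirin. Both other rows that carry Hspa8 separated the arrays as well, at 0.31 and 0.41, whereas the second row of Hspd1, at 0.57, did not. Near-identical copies of Hspa8, Hspd1, Hspe1 and Hspa1a may share probes with them, so their values are uncertain to that extent.

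Dnaja1, the J-domain partner that delivers clients to Hspa8, read 10.87 and 10.90 in control and 10.52, 10.68 and 10.69 with aspirin. With triptolide it read 11.11, 11.14 and 11.26, and with the combination 10.95, 11.19 and 11.25. Combination 1 was the lowest exposed array and came within 0.05 of control 2. Dnaja1 differed by 0.40 ± 0.08 (limma adjusted p = 0.093), and its other row by 0.44, also without overlap. Hspa1a, the strongly heat-inducible Hsp70, read 9.05 to 9.35 in control and 8.99 to 9.22 with aspirin, against 9.55, 9.61 and 10.48 with triptolide and 9.41, 9.76 and 9.81 with the combination. Triptolide 3 was highest there, and Hspa1a differed by 0.63 ± 0.16.

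Helpers of Hsp90 were higher beside them. Ahsa2, related to the activator of the Hsp90 ATPase, ran from 8.52 to 8.75 on the unexposed arrays and from 8.93 to 9.13 on the exposed arrays, with no overlap and 0.18 between the nearest. It differed by 0.38 ± 0.07 (limma adjusted p = 0.087). Chordc1, an Hsp90 co-chaperone, differed by 0.52 ± 0.11, Stip1, which bridges Hsp70 and Hsp90, by 0.43 ± 0.10, and Ahsa1 by 0.27 ± 0.09. Hsp90aa1 itself differed by 0.39 ± 0.10, and its arrays overlapped.

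The mitochondrial chaperonin Hspd1 and its lid Hspe1, which are transcribed away from each other from one shared region, differed by 0.42 ± 0.15 and 0.48 ± 0.12. On combination 1 Hspe1 stood at 11.48, and the other exposed arrays lay between 10.76 and 10.89, still above the 10.34 to 10.58 of the unexposed arrays. Members of the list that did not separate the arrays included the small heat shock proteins Hspb1 at 0.04 ± 0.12 and Cryab at -0.42 ± 0.14, and the co-chaperone Bag3 at -0.04 ± 0.10. Endoplasmic reticulum chaperones and stress genes had 1 separating gene of 19, Manf, at 0.21 ± 0.06 (5.3%), and 17 of 19 lay above 0 with a median of 0.14. In that list 7 members separated without control 2 and 6 without combination 1, where 0.979% and 0.707% of all genes separated higher, against 0.482% on all arrays.

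**Figure D3:**
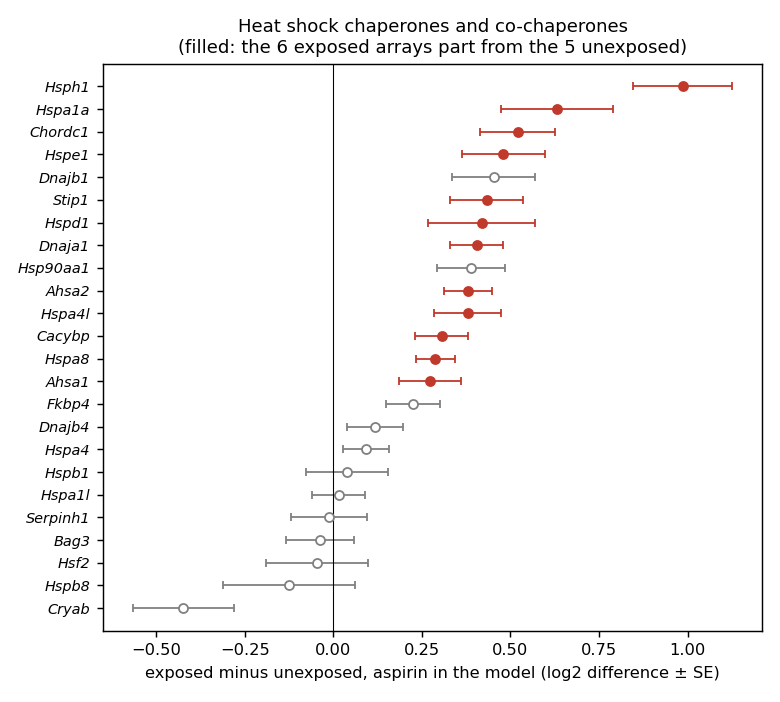
Exposed minus unexposed log2 difference with its SE for the 24 measured heat shock chaperones and co-chaperones, with aspirin in the model; filled red points are the 12 genes in which all 6 exposed arrays lay above all 5 unexposed arrays. Hsph1 lies highest at 0.99 and Cryab lowest at -0.42, and 5 of the genes lie below 0.

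Promoters of the chaperones are shown because heat shock factor binds inverted repeats of GAA there. The letters GAANNTTC, which read the same on both strands, were searched from 250 bases before to 50 after each RefSeq start on GRCm38.p6. A promoter was matched for 163 of the 231 genes. The core was present in 6 of the 11 matched chaperones that separated the arrays (54.5%), in 10 of the 21 matched chaperones of the whole list (47.6%), in 10 of 65 higher genes (15.4%) and in 13 of 98 lower genes (13.3%). Over the 14959 tested genes with a promoter the share was 7.9%. The 65 higher genes include the 11 chaperones, and the 10 with the core include the 6 chaperones that have it. The chaperone promoters were not chosen independently of this motif, since the list holds known heat shock factor targets. Windows of 30 bases around the core follow, read 5′ to 3′ on the strand of the gene, with the core in capitals.
Hsph1, chr5:149636277-149636306, minus strand: tgcagattctgGAAAGTTCtcctcagtagg
Dnaja1, chr4:40722333-40722362, plus strand: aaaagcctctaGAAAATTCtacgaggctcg
Chordc1, chr9:18292257-18292286, plus strand: caaccgGAACGTTCggGAAAATTCctgaag
Hspe1, chr1:55088053-55088082, plus strand: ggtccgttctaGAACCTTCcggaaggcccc
The Chordc1 window holds 2 cores, 10 bases apart from first base to first base. Counted with 0 at the first base of the transcript, the Dnaja1 core starts at -124 and the Hspe1 core at -84, and the latter is also the core found for Hspd1 on the other strand. For Dnaja1 this holds for the first listed start, and the promoters of its later listed starts held no core. In Hsph1 the core lies after the start, at 20 or 41 depending on which of 2 listed starts is used. For Dnaja1 the 250 bases before its first listed start (chr4:40722218-40722467, plus strand) show the core in its wider context.
Dnaja1 upstream: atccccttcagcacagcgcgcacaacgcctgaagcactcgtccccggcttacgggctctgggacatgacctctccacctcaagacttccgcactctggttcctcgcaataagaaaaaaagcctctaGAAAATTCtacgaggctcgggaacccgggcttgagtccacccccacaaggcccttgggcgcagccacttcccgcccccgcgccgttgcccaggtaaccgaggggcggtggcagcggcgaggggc
A match describes letters in a window and not a bound site. Of the other motifs searched on both strands, CACGTG was present in 9.2% of the higher and 9.2% of the lower genes against 9.5% of tested genes, and ACANNNTGT in 7.7% and 7.1% against 6.6%. For TTCNNNGAA the shares were 3.1% and 9.2% against 9.0%, and TTACGTAA was found in 0 of either set against 0.1%.

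Antibody and plasma cell genes made up another group of the higher genes. Igha, the constant region of IgA heavy chains, read 10.02 and 10.18 in control, 9.39, 10.22 and 10.31 with aspirin, 11.14, 10.44 and 11.03 with triptolide and 11.61, 11.32 and 11.86 with the combination. The combination arrays were highest, and triptolide 2, at 10.44, lay just over aspirin 3. Igha differed by 1.24 ± 0.22 (limma adjusted p = 0.087), at 0.77 ± 0.28 without aspirin and 1.62 ± 0.25 beside it. A second row for Igha differed by 1.29 and also separated the arrays. The largest difference of all 231 genes belonged to Igkv5-43, a light chain variable segment named after its value was seen, at 1.84 ± 0.37, with 0.34 between the nearest arrays.

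Derl3, an endoplasmic reticulum protein of secretory cells, read 8.64 and 8.63 in control, 8.65, 8.84 and 8.80 with aspirin, 9.38, 9.12 and 8.89 with triptolide and 9.61, 9.43 and 9.45 with the combination. Triptolide 3 was the lowest exposed array, 0.06 above aspirin 2. Derl3 differed by 0.63 ± 0.09 (limma adjusted p = 0.087). Igha and Derl3 were the 2 of 20 B and plasma cell genes that separated the arrays (10%, against 0.482% of all genes). Without triptolide 3, 4 members did so, where 0.832% of all genes separated higher. Of the 20 members, 18 lay above 0, with a median of 0.51. Jchain, which joins IgA units, differed by 1.03 ± 0.24 and Mzb1, a plasma cell chaperone, by 0.60 ± 0.15, both with overlap. The 2 members below 0 were Prdm1 and Sdc1, also plasma cell genes. Prdm1 ran from 8.78 to 9.06 on the unexposed arrays and from 8.62 to 8.86 on the exposed arrays. Sdc1 ran from 11.18 to 11.38 on the unexposed arrays and from 10.53 to 11.72 on the exposed arrays. The level of the list ran from -0.42 to -0.10 on the unexposed arrays and from -0.20 to 0.72 on the exposed arrays, with triptolide 2 and 3 at -0.20 and -0.16 and combination 1 highest. Numbers of plasma cells and RNA per cell were not measured.

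**Figure D4:**
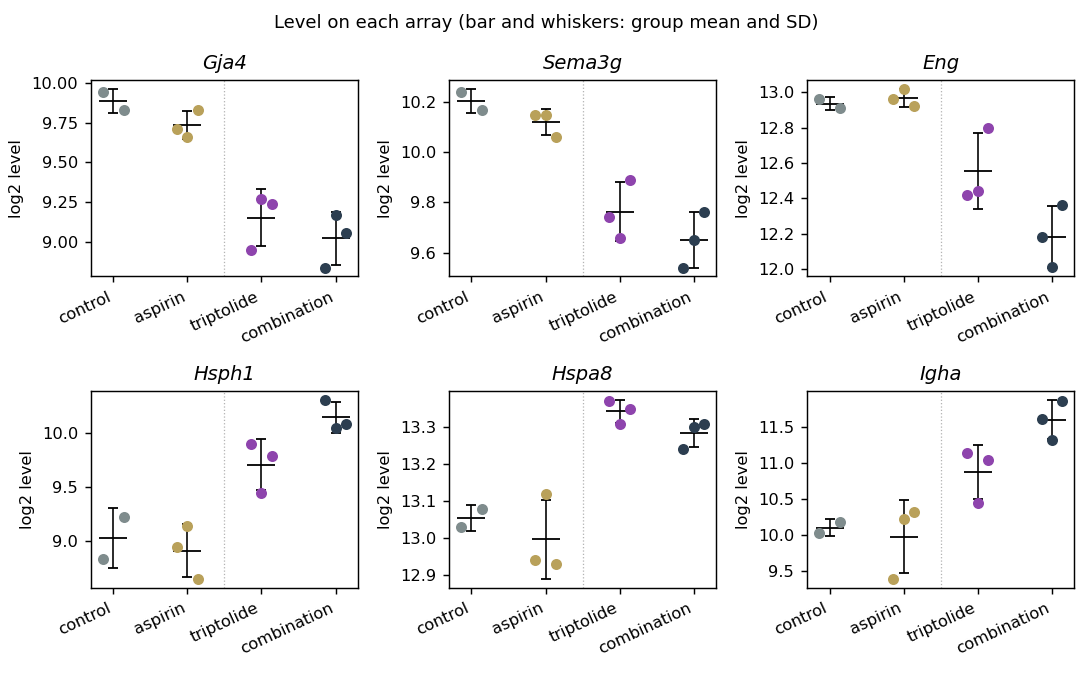
Log2 level on each array of Gja4, Sema3g, Eng, Hsph1, Hspa8 and Igha in the control, aspirin, triptolide and combination groups, with points for arrays and bars for the group mean and SD. In every panel all points right of the dotted line lie on one side of all points left of it, widest for Gja4 at 0.39.

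Other higher genes among the 15 that the rule named by smallest p included Syk. Syk, a kinase downstream of antigen and Fc receptors, ran from 9.15 to 9.57 on the unexposed arrays and from 9.57 to 10.14 on the exposed arrays. Its arrays were separated by less than 0.01, between aspirin 2 and triptolide 3. Syk differed by 0.49 ± 0.11, Lat2, an adaptor of B, mast and myeloid cells, by 0.35 ± 0.07, and Tespa1, an adaptor of lymphocyte receptor signalling, by 0.59 ± 0.12. Cd80, a costimulatory ligand of antigen-presenting cells, differed by 0.41 ± 0.09, and Wdfy4, needed for cross-presentation by dendritic cells, by 0.51 ± 0.12. Second rows for Cd80 and Wdfy4, at 0.29 and 0.35, did not separate the arrays. None of these genes passed.

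Macrophage and class II lists held few separating genes. Ciita, the activator of MHC class II transcription, differed by 0.26 ± 0.06. It was the 1 of 14 genes of its list that separated the arrays (7.1%, against 0.482% of all genes), with a list median of 0.18. C1qb, a complement chain made by interstitial macrophages, differed by 0.46 ± 0.13 and was the only macrophage list gene that separated higher. Car4, described above with the capillary genes, is also on the macrophage list and separated lower, at -0.61 ± 0.13. Each is 5.6% of the list, against 0.482% of all genes higher and 0.728% lower. Ms4a7, a membrane protein of macrophages that is not on the list, differed by 0.48 ± 0.10. The macrophage list as a whole had 10 of 18 members above 0 and a median of 0.06. Apol7c, of the apolipoprotein L family, differed by 0.52 ± 0.12.

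Of the 19 immediate early genes, Myc separated higher and Ier3 lower, and the median was 0.01. Each is 5.3% of the list, against 0.482% of all genes higher and 0.728% lower. Myc, which drives growth, read 9.17 and 9.28 in control, 8.94, 9.05 and 9.09 with aspirin, 9.61, 9.61 and 9.43 with triptolide and 10.81, 9.64 and 9.40 with the combination. Combination 1 stood more than 1 above every other array, and the other 5 exposed arrays still lay above control 2. Myc differed by 0.66 ± 0.22 (limma adjusted p = 0.31). Nr4a3, an orphan nuclear receptor also induced within hours of a stimulus, ran from 7.84 to 8.14 on the unexposed and from 8.31 to 9.20 on the exposed arrays, with 0.17 between them, and differed by 0.73 ± 0.15.

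Several lists that bear on triptolide held no separating gene. The 9 measured TFIIH genes had a median of 0.03, and Ercc3, the drug's target, read 10.42 and 10.50 in control, 10.25 to 10.33 with aspirin, 10.31 to 10.35 with triptolide and 10.19 to 10.31 with the combination. Those ranges overlapped, and Ercc3 differed by -0.08 ± 0.05 (limma adjusted p = 0.701). The RNA polymerase II list had a median of 0.01 and the NF-kB list of 0.11. Glucocorticoid-induced genes had 13 of 15 members above 0 and a median of 0.39 without a separating gene. Per1, a clock gene that glucocorticoids induce, ran from 9.58 to 10.76 on the unexposed and from 10.22 to 10.82 on the exposed arrays and differed by 0.51 ± 0.21 (limma adjusted p = 0.445). Its values on aspirin 2 and 3, 10.76 and 10.45, lay among those of the exposed arrays.

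**Figure D5:**
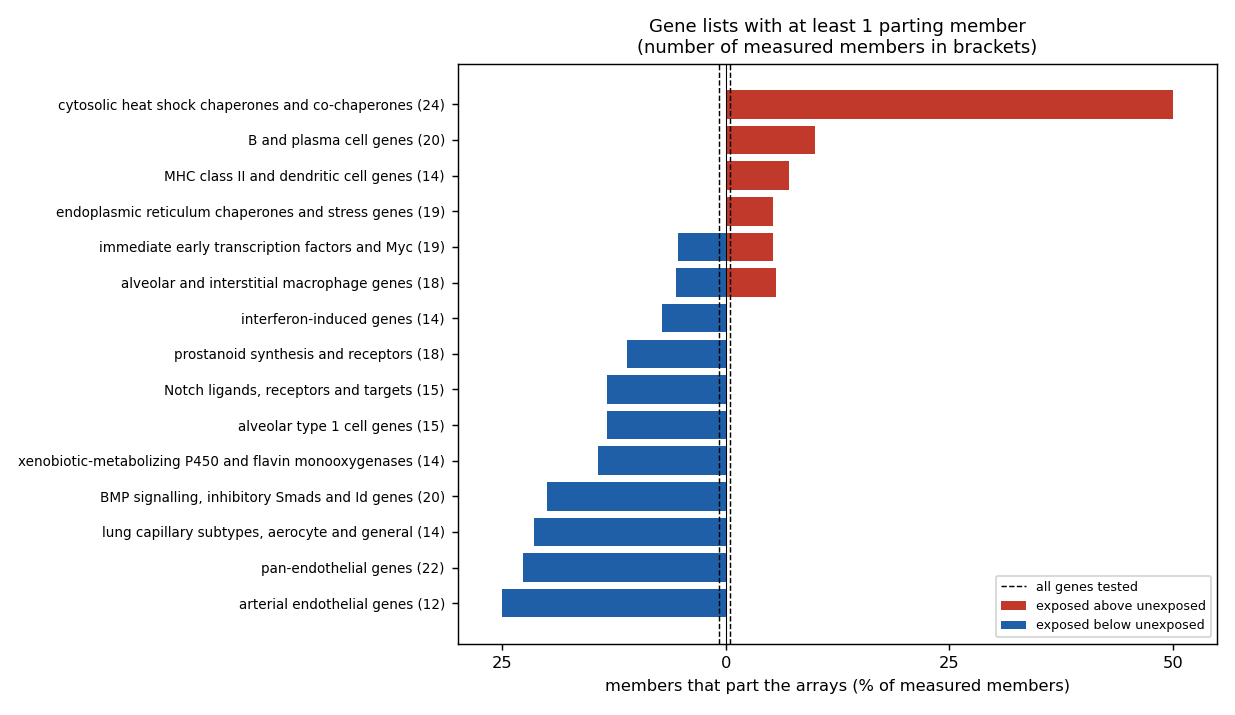
Share of measured members in which all exposed arrays lay above (red, to the right) or below (blue, to the left) all unexposed arrays, for the 15 of 40 gene lists with at least 1 such member; numbers in brackets are measured members and dashed lines give the shares over all genes, 0.482% and 0.728%. Heat shock genes reach 50% on the right and arterial genes 25% on the left.

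Whether the triptolide difference depended on aspirin was asked with the interaction of the 4-group fit. By limma 0 genes (0%) passed, with 645 at an unadjusted p under 0.05 and a smallest adjusted p of 0.253, and a fit without moderation also gave 0. Over the 139 lower genes the median was -0.20 for triptolide against control and -0.44 for the combination against aspirin, and 125 differed by more beside aspirin. The arrays with aspirin were divided by Xist and Y-linked genes exactly as by triptolide, so a larger difference beside aspirin and a sex-linked one cannot be told apart. Over the 92 higher genes the medians were 0.22 and 0.33, and 68 differed by more beside aspirin. The smallest interaction adjusted p by limma among these 231 genes was 0.895, and 19 lower and 4 higher genes had an unadjusted p under 0.05. Slco2a1, with -0.15 ± 0.14 without aspirin and -0.83 ± 0.13 beside it, and Tekt5, with -0.25 ± 0.09 and -0.72 ± 0.08, were among them.

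Single arrays set the outer edges of these sets. Combination 1 was the most extreme exposed array in 112 of the 139 lower and 48 of the 92 higher genes. Triptolide 3 was the exposed array nearest the unexposed ones in 93 of the 139 lower genes. Leaving out triptolide 3 raised the genes past the threshold from 1 to 39, of which 4 were higher and 35 lower, and raised the genes that separated the arrays from 231 to 577. Without control 2, aspirin 1, aspirin 2, aspirin 3 or triptolide 2 the latter count was 366, 366, 419, 368 or 436. Of the 39, only 17 belong to the 231 genes. Hsph1, Derl3, Eng, Erg, Smad6 and Sema3g were among those 17, at limma adjusted p between 0.0211 and 0.044. The rest, such as Kit, Bmp6 and Ednrb, did not separate the arrays when all of them were used. The cardiac muscle gene level of triptolide 3 was 0.88, against at most 0.46 on any other array. Triptolide 3 was also the exposed array nearest the aspirin arrays in Xist, at 6.61, and in the mean of the Y-linked genes, at 9.08. Without it, triptolide 2, which carried both signals, was the only exposed array with high Y-linked genes. The part of these features in the counts was not tested. Aspirin 2, without which 419 genes separated, had a neutrophil gene level of 1.99 and a platelet level of 1.46, against at most 0.38 and 0.62 on the other arrays, and their part was not tested either. After the mean of the Y-linked genes was added to the model 9 genes passed, Hsph1 and Gja4 among them with differences of 0.94 and -0.71, both at a limma adjusted p of 0.031.

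Aspirin itself, taken as the second factor, gave 0 genes (0%) past the threshold by limma, with 2270 at an unadjusted p under 0.05, a smallest adjusted p of 0.396 and 0 genes without moderation. Among the unexposed arrays Xist was high on both controls and low on every aspirin array. Aspirin and these sex-linked signals cannot be told apart there, which limits the aspirin coefficients below. Among the 139 lower genes the median aspirin coefficient was -0.15, and it was above 0 in 8. Among the 92 higher genes it was 0.04, above 0 in 64. Erg and Tspan15 had aspirin coefficients of -0.27 ± 0.09 and -0.32 ± 0.11, both in the direction of their triptolide difference. For Chordc1 the aspirin coefficient was -0.26 ± 0.11, against the direction of its triptolide difference. None of these passed.

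At the edge of the set the separation was narrower than the rounding of the levels. Tysnd1, Gnl3 and Baz1a were the higher genes with the narrowest distance, of at most 0.001, and Mogs, Hnrnpc and Tnfsf8 overlapped by at most 0.0019. On the lower side Palm, Zkscan4 and Osbpl5 were just inside and Ccdc85a, Csgalnact1 and Twf1 just outside. Csgalnact1, an enzyme of chondroitin sulphate synthesis, differed by -0.45 ± 0.08 (limma adjusted p = 0.092), while Palm, inside the set, differed by -0.14 ± 0.06.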

How the data were processed

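RNA of 11 lung samples was read on Affymetrix arrays, and the log2 values the authors deposited, 35556 rows of them, were used as given. The submitters' processing notes name RMA, which corrects background and summarises probes, and the program Partek. Versions, settings and the genome build behind the array were not given in the sources used here. Precision is limited by how many arrays there were, and no detection calls were used. Biotinylated cDNA had been made from 100 ng of total RNA, per the labels' protocols.

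The platform annotation at GEO named the rows and covered 23410 of them. Of these 21789 had 1 gene symbol and 1621 several, and 12146 rows were unnamed here. Chromosomes came from the GRCm38.p6 RefSeq gene table, which 91 of the rows with 1 symbol did not match. Leaving out 824 rows off the autosomes and keeping the row with the highest mean where 951 genes had several gave 19106 genes. Some genes were not analysed here.

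Fits used limma 3.58.1 (R 4.3.3; two-sided, moderated by eBayes). The model held aspirin and triptolide exposure as additive factors over all 11 arrays, with 8 residual and 3.56 prior degrees of freedom. A fit of the 4 groups gave the interaction and the differences without and with aspirin. Benjamini-Hochberg adjustment ran over all 19106 genes with a threshold of 0.05. The fit was tested on simulated data.

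The comparison, the genes and the 40 lists were chosen with earlier results of these data known. Lists held 657 symbols, 605 of them measured, and were described by counts and medians without a set test. A list level is the average over its members of each one's log2 value less that member's 11-array mean. Since fewer than 5 separating genes passed in either direction, the rule named the 15 with the smallest p in each direction. It added the 5 with the widest distance, the 3 just inside and 3 just outside, up to 5 members of each list with at least 2 separating genes, and Ercc3, Hsph1, Per1, Gja4, Cdh5 and Ptgs2. Predicted genes, clones, small RNAs, receptor families of smell and taste and antigen receptor segments were skipped. Other members of the lists are named to show how a list varied.

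Replicate numbers were checked for pairing. Over 15 pairs of arrays with the same number, the correlation of their deviations from the group means ran from -0.142 to 0.333, so the numbers were not treated as pairs. Alternatives were 2 scalings, the mean of a gene's rows, a filter on low values at the 25th percentile, models without the aspirin term or with the mean of the strata, other moderation, array weights, a Y-linked covariate, a replicate block and leaving out arrays.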

Additional observations from a re-analysis of the deposited data

Results flagged for a closer look

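Of 152 groups of values checked, 16 had an array far from the others of its side, where chance flags about 1 in 20 groups. In 12 of them the array was combination 1. Among higher genes it read 11.48 for Hspe1, the mitochondrial co-chaperonin, against 10.76 to 10.89 on the other exposed arrays, and 10.81 for Myc where the next highest exposed array was 9.64. It read 9.71 for Gnl3, a nucleolar GTP-binding protein, 9.97 for Baz1a, a chromatin remodelling factor, and 9.49 for Tysnd1, a peroxisomal protease. For Mogs, the first glucosidase of glycan trimming, it read 9.13.

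Combination 1 was the low array for Prickle1 at 8.99, Osbpl5 at 9.59, Twf1, an actin regulator, at 11.05, Kitl at 10.27, Fmo5 at 9.08 and Ptgs2 at 9.30. Among unexposed arrays, aspirin 1 was low for Chordc1 at 8.76, against 9.26 to 9.44 on the others, and for C1qb at 9.42, against 10.08 to 10.15. Aspirin 2 was high for Hpgd at 13.12 and control 1 for Smad9 at 9.15.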

How the results depend on the processing

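Gja4 was the only gene past the threshold with median centring, quantile normalization, the mean of a gene's rows, the filter on low values, and the trended robust prior. The count was 0 without the aspirin term, with the mean of the strata and without moderation, where Gja4 had limma adjusted p of 0.0506, 0.0594 and 0.148. It was 344 with array weights (120 higher, 224 lower), which gave combination 1 a weight of 0.14, and 9 with the Y-linked covariate. With the replicate number as a block 2 genes passed. Leaving out 1 array gave 0 to 39 genes past the threshold, 258 to 577 genes that separated the arrays, and 0 to 1 genes for the interaction. Without combination 1 and triptolide 2 together, an alternative chosen after seeing the data, 0 genes passed and 581 separated the arrays. Fewer arrays can only add genes that separate them. Ptgs2, which was not called, turned positive at 0.00 with quantile normalization, 0.01 without the aspirin term, 0.20 with array weights and 0.15 without both arrays, and ran from -0.14 to 0.17 when 1 array was left out. Over the 68 named genes and 23 alternatives, 1481 of 1561 values kept direction and side of the threshold, 60 newly passed, 13 no longer passed and 7 reversed. All 13 belonged to Gja4, the only named gene that passed in the main fit, so Gja4 kept its call in only 10 of 23 alternatives. The other named genes had no call to lose. Of 184 list medians, 183 moved by less than the spread.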

Other observations

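Rows that carry no single autosomal gene symbol were not part of the comparison. Of 14682 such rows, 95 lay higher and 32 lower on all 6 exposed arrays than on all 5 unexposed ones, 0.865% in all. They include rows without a symbol, with several symbols and off the autosomes, and were not examined further.

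Small nucleolar RNAs were skipped by the rule for names and are given after their values were seen. Snord73b, a guide of ribosomal RNA modification, separated the arrays higher at 0.77 ± 0.12 (limma adjusted p = 0.087), with 0.18 between the nearest arrays. Snora23 did so at 0.40 ± 0.08. Cell cycle genes had all 24 measured members above 0 and a median of 0.59, but none separated the arrays, and their level was 2.54 on combination 1 and at most -0.06 on any other array.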
